A study of Mus musculus with 3 samples.

Results

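The Notch receptors Notch1, Notch2, Notch3 and Notch4, their ligand Jag1, the nuclear factor Rbpj and the effector genes Hes1, Hey1, Hey2 and Heyl were examined in renin-producing cells sorted from the kidney. These 10 genes were chosen by their platform gene symbols, with every probe set that carried one of those symbols alone. That gave 11 probe sets, of 21789 with a single gene symbol, and 10 genes of 19938. Rbpj had 2 probe sets and each other gene 1. A further 6 probe sets list Notch4 together with another gene, so their signal cannot be assigned and they were left out.

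The data are 3 single-colour Affymetrix arrays that form 1 group, replicates 2, 4 and 5. Each holds RNA from YFP-positive cells of adult male Ren1c-YFP mice, a transgenic line, of unspecified strain, whose renin-expressing cells carry yellow fluorescent protein. All mice drank captopril at 0.5 mg/ml, a drug that blocks angiotensin-converting enzyme, and ate low-salt chow for 2 weeks. Kidney cortex was digested with collagenase and a fluorescence-activated sorter gathered the cells positive for YFP. With no untreated, unsorted or YFP-negative sample analysed here, the values are levels in sorted cells and show no effect of captopril or salt. Samples were not pooled, but the labels do not state that each came from its own animal. The p-values therefore cover the spread between these samples alone, which may be technical. The number of arrays limits the precision.

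Notch receptors are membrane proteins that are activated by ligands of the Jagged and Delta families on a neighbouring cell. Ligand binding exposes the receptor to cleavage by ADAM proteases and then by gamma-secretase, and the freed intracellular part enters the nucleus. There it binds Rbpj, turns that DNA-bound repressor into an activator, and switches on the basic helix-loop-helix repressors of the Hes and Hey families. In the kidney, Rbpj in cells of the renin lineage is known to be needed for a normal number of renin-positive cells, and Notch3 is a receptor of vascular smooth muscle and pericytes.

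The question the arrays can answer is whether each transcript was measured above background. Background was read from 1027 olfactory receptor genes, a family known mainly from the nose, whose silence in these cells was not tested. The level of each array was the 95th percentile of their log2 signals, which was 6.20, 6.32 and 6.50 in replicates 2, 4 and 5. Signal minus that level was tested one-sided with limma, with p adjusted over all 19938 genes. All 10 genes passed at an adjusted p under 0.05, where 37.3% of all genes did. All 10 also lay above the level on each of the 3 arrays, as 41.9% of all genes did. Their median height above the level was 1.83 log2 units, and that of all genes was -0.01. The genes were chosen with earlier results of these data known, so the count is a description. Probe affinity also sets a signal, so the genes are not ranked against each other. In sorted bulk cells, few cells with a transcript and little transcript in each cell cannot be told apart.

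**Figure D1:**
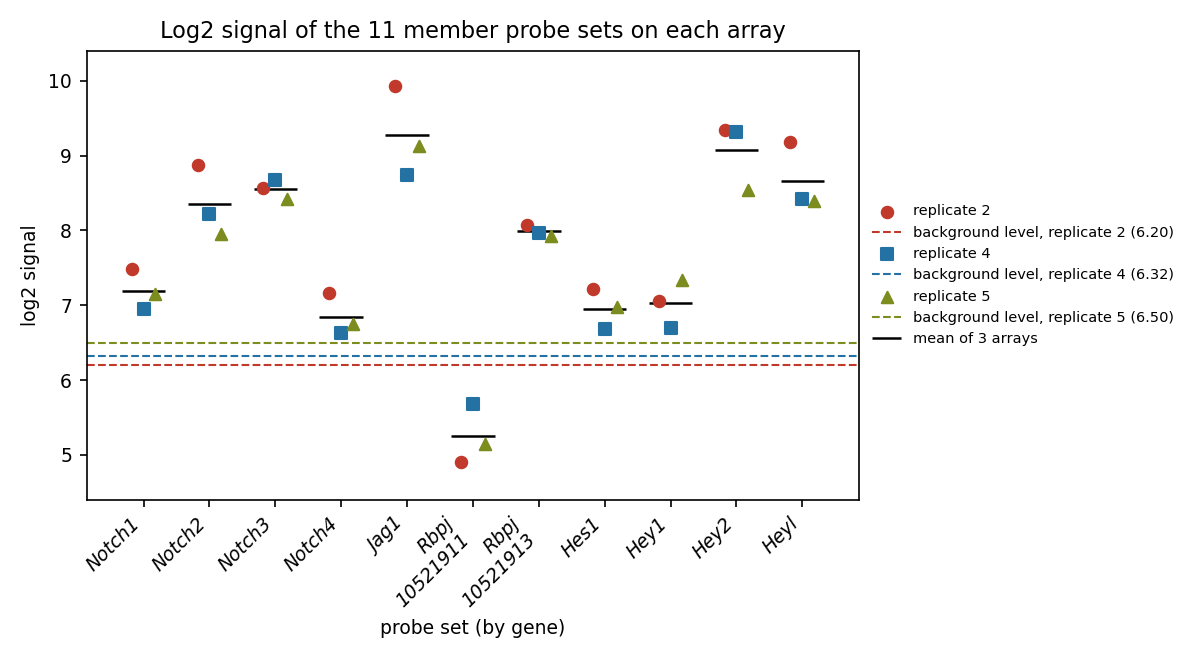
Log2 signal (vertical axis) of each probe set of the 10 genes (horizontal axis) on replicates 2, 4 and 5, with the mean of the 3 arrays as a black bar and each array's background level as a dashed line. One Rbpj probe set lies under the level on every array, and the other 10 probe sets lie above it on every array.

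Among the receptors, Notch3 had log2 signals of 8.57, 8.67 and 8.42 in replicates 2, 4 and 5, a mean of 8.55 ± 0.12 (SD, n = 3, as for all means below). The 3 arrays lay within 0.24 log2 units, close to each other and well apart from the background level. The mean height above the level was 2.21 ± 0.24 (SE), with a limma adjusted p of 8.50e-05. Notch2, a receptor needed for nephron formation in the developing kidney, had signals of 8.87, 8.22 and 7.95. Replicate 2 was the high array and replicate 5 the low one, and the mean was 8.35 ± 0.47, 2.01 ± 0.28 (SE) above the level (limma adjusted p = 3.72e-04).

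Notch1, the receptor best known from T cell and vascular development, had signals of 7.48, 6.95 and 7.15 in replicates 2, 4 and 5. Its mean of 7.19 ± 0.27 was 0.85 ± 0.20 (SE) above the level, with a limma adjusted p of 0.00572. Notch4, a receptor known from endothelial cells, had signals of 7.16, 6.63 and 6.75. These lay 0.95, 0.31 and 0.25 above their arrays' own levels, so that replicates 4 and 5 were near background. The Notch4 mean was 6.84 ± 0.28, 0.50 ± 0.19 (SE) above the level (limma adjusted p = 0.0429). That call was lost without replicate 2 (limma adjusted p = 0.248) and without replicate 4 (0.0676). In log2 signal Notch1 and Notch4 shared an order of arrays, with replicate 2 high and replicate 4 low, as did Jag1 and Hes1.

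Jag1, a membrane-bound ligand that activates Notch on neighbouring cells, had signals of 9.93, 8.74 and 9.13 in replicates 2, 4 and 5. Its mean of 9.27 ± 0.61 stood 2.93 ± 0.31 (SE) above the level, with a limma adjusted p of 7.83e-05. Jag1 was the only gene of the 10 whose highest and lowest arrays differed by more than 1 log2 unit (1.19), as did 13.7% of all called genes. Replicate 2 was 1.00 above the mean of the other arrays, and 0.74 above it after quantile normalization. The 3 called genes closest to Jag1 in their centred values over the arrays were Alyref, Pdlim1 and Frmd6, at Euclidean distances of 0.027, 0.034 and 0.038 log2 units. Alyref takes part in the export of messenger RNA, and its signals of 8.08, 6.93 and 7.29 followed the same order of arrays. Of 7436 other called genes 62 lay within 0.2 of Jag1, and over 3 arrays such likeness carries no test.

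Rbpj, the DNA-binding factor to which the Notch intracellular domain is joined in the nucleus, was measured by probe sets that gave different results. The probe set 10521913, paired by the platform with the gene's RefSeq transcripts, had signals of 8.07, 7.97 and 7.93 in replicates 2, 4 and 5. These lay within 0.15 log2 units, with a mean of 7.99 ± 0.08, 1.65 ± 0.22 (SE) above the level (limma adjusted p = 2.67e-04). The probe set 10521911, paired with a GenBank record and no RefSeq transcript, had signals of 4.91, 5.68 and 5.15. It was under the level on all arrays, with a mean of 5.25 ± 0.40 and a limma adjusted p of 1.0 over 21789 probe sets. On that scale 10 of the 11 probe sets were called, where 37.8% of all were. The call for Rbpj therefore rests on which probe set is read, and with the mean of both it was not made (limma adjusted p = 0.130).

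Hey2 is a repressor of the Hairy/Enhancer-of-split family with a YRPW motif, expressed in arteries and heart, and its gene is a textbook target of Notch. Its signals were 9.34, 9.32 and 8.54 in replicates 2, 4 and 5. Replicates 2 and 4 were nearly equal and replicate 5 was the low array, by 0.78 against the mean of the others. The mean was 9.07 ± 0.45, 2.72 ± 0.29 (SE) above the level (limma adjusted p = 8.10e-05).

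Heyl, a relative of Hey2 known from vascular smooth muscle, had signals of 9.18, 8.42 and 8.39 in replicates 2, 4 and 5. Replicates 4 and 5 agreed closely and replicate 2 stood 0.77 above their mean, or 0.54 after quantile normalization. The Heyl mean of 8.66 ± 0.44 was 2.32 ± 0.28 (SE) above the level, with a limma adjusted p of 1.64e-04.

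Hey1, the third Hey family gene, which is known from arterial endothelium, had signals of 7.05, 6.70 and 7.34 in replicates 2, 4 and 5. It was the only gene of the 10 whose log2 signal was highest in replicate 5. The mean was 7.03 ± 0.32, 0.69 ± 0.18 (SE) above the level (limma adjusted p = 0.00909), and with replicate 2 left out the limma adjusted p was 0.0563. Hes1, a widely expressed repressor and Notch target, had signals of 7.21, 6.68 and 6.97, with replicate 2 high and replicate 4 low. Its mean of 6.95 ± 0.27 was 0.61 ± 0.19 (SE) above the level (limma adjusted p = 0.0189). With replicate 2 left out it was not called either (limma adjusted p = 0.117).

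Promoter sequence from RefSeq (GRCm38.p6), 250 bases before the annotated start and 30 from it on, was available for 7 of the 10 genes, in 8 windows, and was searched on both strands for GTGGGAA, a high-affinity Rbpj site, and its core TGGGAA. Hes1, Hey1 and Heyl had no entry in the table. GTGGGAA was found in 1 of the 7 genes, Hey2, with 2 matches, and 5.94% of 32851 windows of that length held at least 1 and 0.234% held 2 or more. The matches lie at -207 to -201 on the opposite strand and at -4 to 3 on the gene's strand, counted from the start with no base 0. The Hey2 window is chr10:30842754-30843033 on the minus strand. In the first Rbpj window, chr5:53590096-53590375 on the plus strand, the core TGGGAA was found at -149 to -144 and, on the opposite strand, at -65 to -60. The second Rbpj window, chr5:53590236-53590515, overlaps the first and holds that opposite-strand match again, at -205 to -200 from its own start. That core, which every GTGGGAA also contains, stood in 23.8% of all windows. The Hey2 window and the first Rbpj window are printed because they hold, between them, the matches found to the element that Rbpj reads, with GTGGGAA in capitals for Hey2 and TGGGAA in capitals for Rbpj, in either orientation. A match describes the letters of the window, and binding was not measured here.
Hey2: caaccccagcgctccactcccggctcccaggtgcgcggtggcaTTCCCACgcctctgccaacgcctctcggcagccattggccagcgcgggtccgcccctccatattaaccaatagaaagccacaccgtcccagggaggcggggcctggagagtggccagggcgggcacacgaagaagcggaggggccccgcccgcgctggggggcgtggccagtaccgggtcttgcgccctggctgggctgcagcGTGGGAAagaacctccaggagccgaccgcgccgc
Rbpj: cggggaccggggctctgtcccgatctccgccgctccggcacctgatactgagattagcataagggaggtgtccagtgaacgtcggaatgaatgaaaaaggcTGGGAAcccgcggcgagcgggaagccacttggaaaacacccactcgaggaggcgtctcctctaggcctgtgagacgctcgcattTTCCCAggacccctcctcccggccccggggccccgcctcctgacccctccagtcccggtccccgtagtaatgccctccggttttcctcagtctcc

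**Figure D2:**
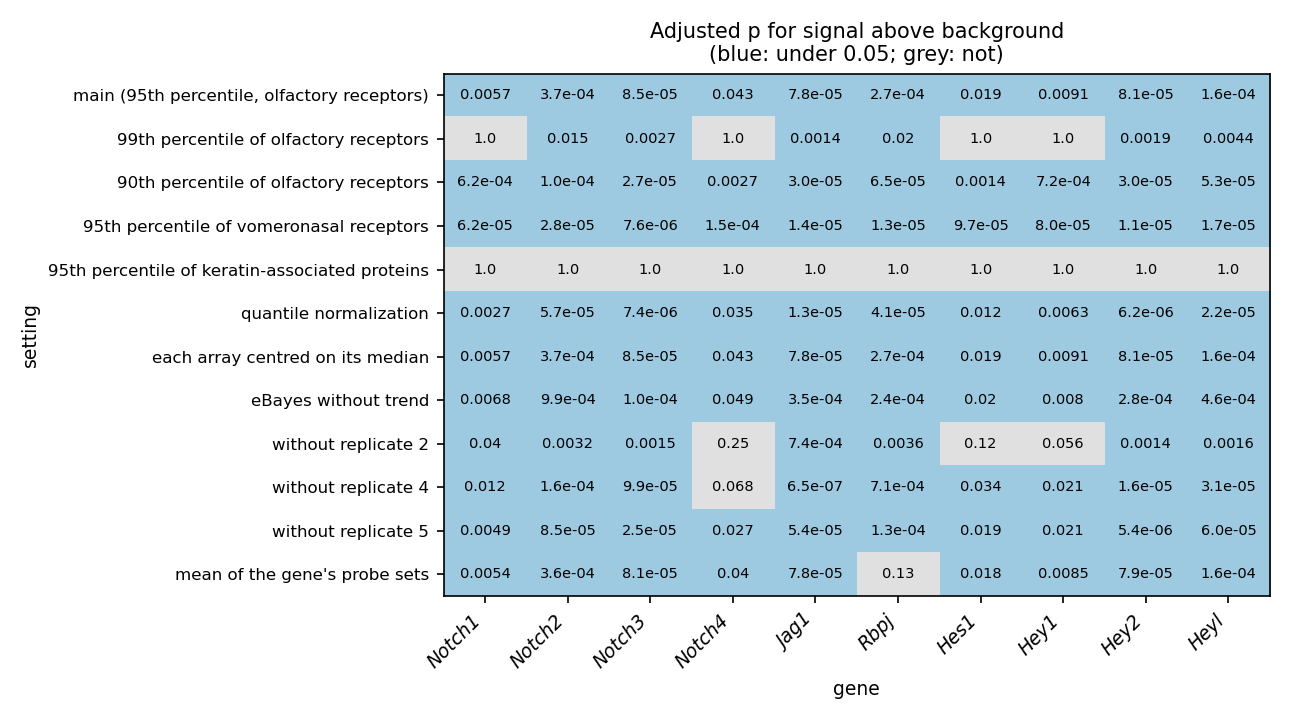
Limma adjusted p for signal above background for each gene (columns) under the main setting and 11 alternatives (rows), with values under 0.05 in blue and the others in grey. Jag1, Hey2, Heyl, Notch2 and Notch3 kept their calls in each setting shown except the level taken from keratin-associated protein genes, at which none of the 10 was called.

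The calls depended on how strict the level was, those of Notch1, Notch4, Hes1 and Hey1 already at the 99th percentile. With the level raised to the 99th percentile, where 16.6% of all genes were called, 6 of the 10 genes passed, namely Notch2, Notch3, Jag1, Rbpj, Hey2 and Heyl. Each of the other 4 then had a mean under the level, the smallest gap being that of Notch1 (-0.01) and the largest that of Notch4 (-0.36). With the level taken from keratin-associated protein genes, 0 of the 10 passed with limma, and 3.56% of all genes did. Without replicate 2, 7 of the 10 were called (30.3% of all genes), and without replicate 4 there were 9 (32.1%). Jag1, Hey2, Heyl, Notch2, Notch3, Notch1 and Rbpj kept their calls in both cases.

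The other genes of the pathway were grouped by role. Of 70 listed genes 66 were measured, and 41 of these (62.1%) were called above background, where 37.3% of all genes were. Their median height was 0.64 log2 units, and that of all genes was -0.01. As for the 10 genes, these lists were drawn up with earlier results known. The other listed genes were not analysed here. Without replicate 2 the count was 30, with 30.3% of all genes called. At the 99th percentile it was 12, near the 16.6% of all genes, and with the level from keratin-associated protein genes it was 2, near their 3.56%. By list, the count at the 99th percentile was 0 of 7 for other ligands, 4 of 9 for receptor processing and 0 of 5 for glycosylation. It was 1 of 13 for trafficking, 3 of 8 for coactivators, 3 of 13 for corepressors and 1 of 11 for other Hes family genes and targets.

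**Figure D3:**
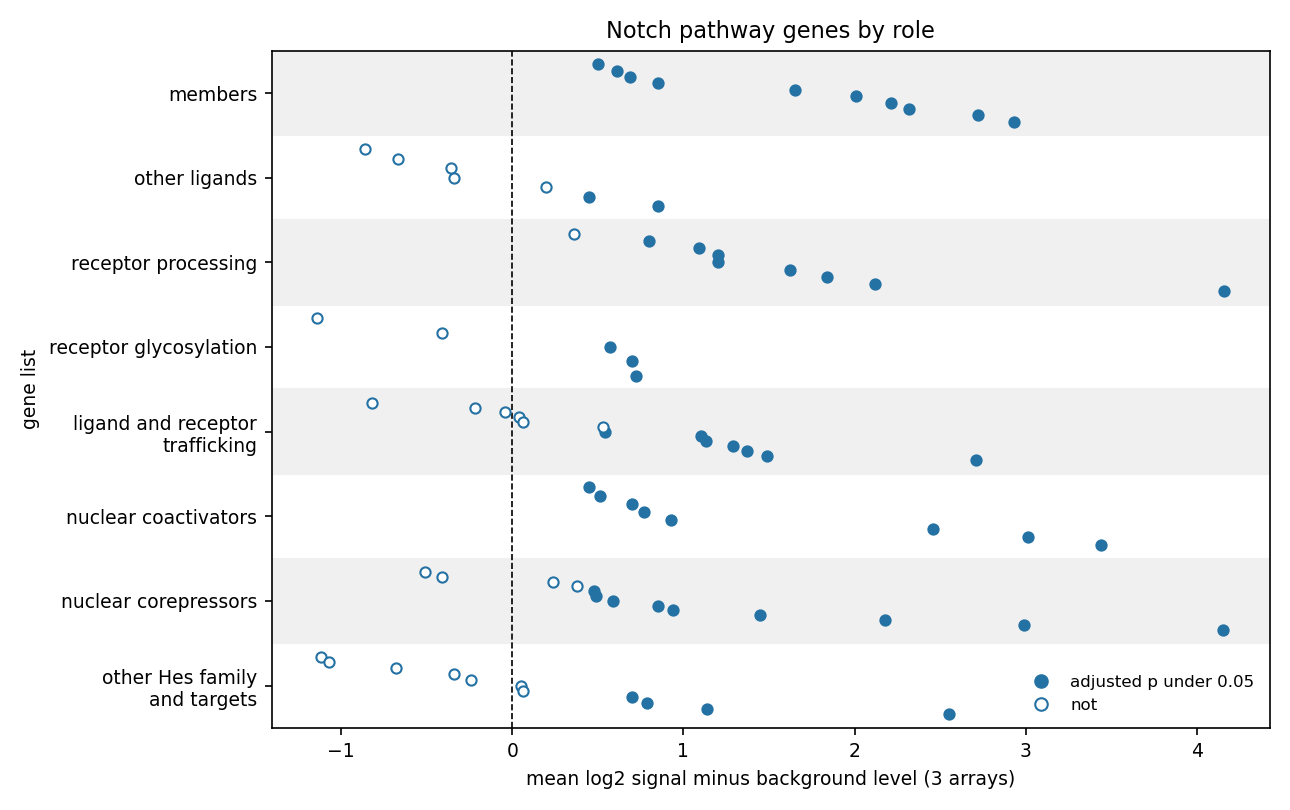
Mean log2 signal minus the background level over the 3 arrays (horizontal axis) for the 10 genes and for 7 lists of other pathway genes (vertical axis). Filled points passed at a limma adjusted p under 0.05 and open points did not, and the lists of members and of nuclear coactivators hold filled points only.

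Of the 7 other ligand genes 2 passed (28.6%, where 37.3% of all genes did). None of the 4 other canonical ligands did with limma at this level, and none had an unadjusted p under 0.05. Jag2 stood at 6.00 ± 0.15, Dll1 at 5.98 ± 0.19 and Dll3 at 5.49 ± 0.18, with means under the level. Dll4, the Delta ligand of arterial endothelium, was at 6.54 ± 0.04 (limma adjusted p = 0.25). Its 3 arrays were nearly equal, at 6.59, 6.52 and 6.52. With lower levels the result was different. Dll4 was called at the 90th percentile (limma adjusted p = 0.00646), where 50.0% of all genes were. With the level from vomeronasal receptor genes, where 65.9% of all genes were called, Dll4 (1.32e-04), Jag2 (0.00348) and Dll1 (0.00502) were called with limma and Dll3 (0.809) was not. The ligand-like genes Dlk2 (7.19 ± 0.12) and Dlk1 (6.80 ± 0.21) passed and Dner (5.67 ± 0.16) did not. Dlk1 was not called once replicate 2, 4 or 5 was left out (limma adjusted p = 0.0911, 0.115 and 0.0558).

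Genes that process the receptor passed in 8 of 9 measured cases (88.9%, where 37.3% of all genes did). Adam17 (7.97 ± 0.17) and Adam10 (7.55 ± 0.53), the proteases that make the outer cut, were among them. Furin (7.54 ± 0.03), which cleaves the receptor during its passage through the Golgi, passed as well. Of 6 measured gamma-secretase subunit genes 5 were called. Psenen (10.50 ± 0.51), Ncstn (8.46 ± 0.13), Aph1a (8.18 ± 0.49), Aph1c (7.44 ± 0.16) and Psen2 (7.14 ± 0.17) passed, and Aph1b (6.70 ± 0.20) did not (limma adjusted p = 0.0562). Psen2 and Aph1c fall outside the naming rule and were added after their values were seen, so that each called subunit gene is given.

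Of 5 glycosylation genes 3 passed (60.0%, where 37.3% of all genes did). Pofut1 (6.91 ± 0.04) and Poglut1 (7.06 ± 0.52), which attach fucose and glucose to the receptor, were called, as was the Fringe enzyme gene Rfng (7.04 ± 0.08). The other Fringe genes, whose products lengthen the fucose and so change the response to Jagged and Delta ligands, were under the level, with Lfng at 5.20 ± 0.09 and Mfng at 5.93 ± 0.03. Without replicate 2 none of the 5 was called (limma adjusted p of 0.0698 for Pofut1, 0.189 for Poglut1 and 0.0535 for Rfng). Pofut1 was not called without replicate 4 either (0.0783).

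Genes of ligand and receptor trafficking passed in 7 of 13 cases (53.8%, where 37.3% of all genes did). They included Mib1 (7.83 ± 0.41), a ubiquitin ligase that activates the ligands by driving their uptake, Itch (9.05 ± 0.61), a ligase that targets Notch, and Neurl1b (7.47 ± 0.19), Dtx3 (7.44 ± 0.26) and Aak1 (7.63 ± 0.41). With the mean of its probe sets Neurl1b was not called (limma adjusted p = 0.38). Numbl (5.52 ± 0.24), a relative of the Notch inhibitor Numb, and Dtx2 (6.12 ± 0.23) had means under the level. The count was 6 without replicate 2 or without replicate 4, with Neurl1a not called (limma adjusted p = 0.104 and 0.0747). It was 8 without replicate 5, with 39.2% of all genes called, when Numb passed (limma adjusted p = 0.00501).

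All 8 nuclear coactivator genes passed, where 37.3% of all genes did. Those for the Mastermind proteins, which hold the Notch and Rbpj complex together, were Maml1 (6.85 ± 0.13), Maml2 (7.11 ± 0.30) and Maml3 (6.79 ± 0.13). The acetyltransferase genes Crebbp (9.79 ± 0.63), Ep300 (8.80 ± 0.64), Kat2a (7.28 ± 0.04) and Kat2b (7.04 ± 0.05) and the Rbpj partner gene Snw1 (9.35 ± 0.30) passed too. Maml1 and Maml3 missed the threshold without replicate 2 (limma adjusted p = 0.121 and 0.216) and without replicate 4 (0.0732 and 0.153), which left 6 of 8 in both cases.

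Of 13 measured corepressor genes 9 were called (69.2%, where 37.3% of all genes were). Among them were the histone deacetylase genes Hdac2 (10.49 ± 0.26) and Hdac1 (9.33 ± 0.09), the demethylase gene Kdm5a (7.79 ± 0.10), and Cir1 (8.52 ± 0.56) and Spen (7.19 ± 0.06), whose products bind Rbpj. Rbpjl, a relative of Rbpj known from the pancreas, was under the level at 5.93 ± 0.12, as was the Groucho family gene Tle4 (5.83 ± 0.29). Without replicate 2 the count was 6, with Ctbp2, Tle2 and Tle3 not called (limma adjusted p of 0.166, 0.118 and 0.0958), and without replicate 4 it was 7, with Tle2 and Tle3 not called (0.0733 and 0.139). Without replicate 5 it was 10, when L3mbtl3 was called (limma adjusted p = 0.0141).

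Other Hes family genes and Notch targets passed in 4 of 11 cases, a share of 36.4% beside the 37.3% of all genes. Hes5, a close relative of Hes1, had signals of 7.59, 7.37 and 7.50 in replicates 2, 4 and 5 (limma adjusted p = 0.00108). Hes6 (7.13 ± 0.17), the cyclin gene Ccnd1 (8.89 ± 0.37) and Nrarp (7.04 ± 0.56), a feedback inhibitor of Notch, also passed. With replicate 2 left out Nrarp was not called (limma adjusted p = 0.25). Helt (5.22 ± 0.26) and Hes3 (5.66 ± 0.22) were under the level.

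The samples carried transcripts of more than one cell type, and the counts below stand beside the 37.3% of all genes that were called. Of the renin cell markers 6 of 6 measured were called, among them Rgs5 (12.37 ± 0.10), Crip1 (11.95 ± 0.18) and Gja5 (11.34 ± 0.32), while Ren1, Ren2, Akr1b7 and Adrb1 were not analysed here. Mural cell markers were called in 11 of 13 cases for smooth muscle and in 9 of 10 for pericytes, a list that includes Notch3 itself. The smooth muscle genes Acta2 (12.62 ± 0.06), Myl9 (12.40 ± 0.07) and Myh11 (11.98 ± 0.36) were called, and Actg2 (6.14 ± 0.17) was not. Tubule markers were called in 10 of 10 cases for the proximal tubule, 5 of 6 for the thick ascending limb, 6 of 7 for principal cells and 6 of 6 for intercalated cells. Among them were Kap (13.09 ± 0.08), Gpx3 (12.69 ± 0.27) and Slc27a2 (12.25 ± 0.15) of the proximal tubule. Umod (11.79 ± 0.57) of the thick ascending limb was called too. Median heights above the level were 4.76 log2 units for proximal tubule, 4.24 for smooth muscle, 3.95 for thick ascending limb and 3.83 for renin cell markers. They were 1.10 for principal cell, 1.67 for intercalated cell, 1.63 for pericyte and 0.50 for endothelial markers. Podocyte markers were called in 1 of 6 cases and macrophage markers in 2 of 7, which became 1 when any single replicate was left out. Both of these shares, 16.7% and 28.6%, were under that of all genes. Without replicate 4 the intercalated cell count was 4 and the principal cell count 5. Without replicate 2 the intercalated cell count was 5. The smooth muscle count was 10 without replicate 2 or without replicate 4, and the thick ascending limb count was 6 without replicate 5. Which of these cells the Notch transcripts came from was not tested.

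Endothelial markers are given beside the Notch genes because several of the latter are also used by endothelium. Of 14 endothelial markers 8 were called (57.1%), 4 without replicate 2, 6 without replicate 4 and 12 without replicate 5. At the 99th percentile 1 was called, where 16.6% of all genes were, and at the 90th percentile 13, where 50.0% were. Without the eBayes trend 5 were called. The list's median log2 signal was 7.28, 6.82 and 6.69 in replicates 2, 4 and 5. Emcn (9.22 ± 0.56), Egfl7 (7.62 ± 0.48) and Ptprb (8.56 ± 1.44) were called. Erg (6.13 ± 0.62), an endothelial transcription factor gene, had a mean under the level. Its replicate 2 signal of 6.84 lay 0.64 above that array's own level, and the other arrays lay under theirs. Pecam1, named here as a defining marker and not by the rule, had signals of 9.03, 6.87 and 6.79. It was not called without replicate 2 (limma adjusted p = 0.12). Of 7 arterial endothelial markers, among them Dll4, 3 were called, a share of 42.9% that is near the 37.3% of all genes.

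Across the arrays, 8 of the 10 Notch genes had their highest signal in replicate 2, as 43.8% of all called genes did. Notch3 had its highest signal in replicate 4 and Hey1 in replicate 5. Above each array's own level, Notch3 lay at 2.37, 2.35 and 1.92 in replicates 2, 4 and 5, and Hey1 at 0.84, 0.39 and 0.83. On that scale both were highest in replicate 2, whose level was the lowest. The count of 8 by signal became 7 with each array centred on its median and 6 after quantile normalization. Of called genes 43.0% and 29.7% were then highest in replicate 2. The median over the 10 genes of replicate 2 minus the mean of the other arrays was 0.42, against 0.12 for all called genes. Over all measured markers, called or not, it was 0.83 for the endothelial ones, of which 13 of 14 were highest in replicate 2. It was 0.60 for the arterial ones, of which 7 of 7 were, among them Sox17 and Bmx, under the level on every array. Over all 19938 genes, called or not, it was -0.02, and 6086 were highest in replicate 2. Among called markers alone it was 1.28 for endothelial and 0.60 for arterial ones.

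The same difference was 0.13 for smooth muscle, 0.04 for pericyte, 0.31 for renin cell, 0.25 for proximal tubule and 0.17 for thick ascending limb markers. It was 0.22 for podocyte markers. Other lists went the opposite way, with -0.52 for principal cell, -0.44 for intercalated cell and -0.22 for macrophage markers. In replicate 2, 0 of 7 principal cell and 0 of 6 intercalated cell markers had their highest signal. Among the Notch genes it was 1.00 for Jag1, 0.79 for Notch2, 0.77 for Heyl, 0.47 for Notch4, 0.43 for Notch1, 0.41 for Hey2 and 0.39 for Hes1. For Rbpj (0.13), Notch3 (0.03) and Hey1 (0.03) it was small, and after quantile normalization these were -0.07, -0.19 and -0.09. Most endothelial markers and most of the Notch genes were thus highest in the same array, as were 8 of 13 smooth muscle and 4 of 6 renin cell markers. The counts there were 5 of 10 for proximal tubule, 4 of 10 for pericyte and 2 of 6 for thick ascending limb markers. The part of endothelial RNA in the differences was not tested. The array differences carry no test, since the 3 arrays are replicates of 1 group. The median SD was 0.30 for the 10 genes and 0.27 for all called genes.

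**Figure D4:**
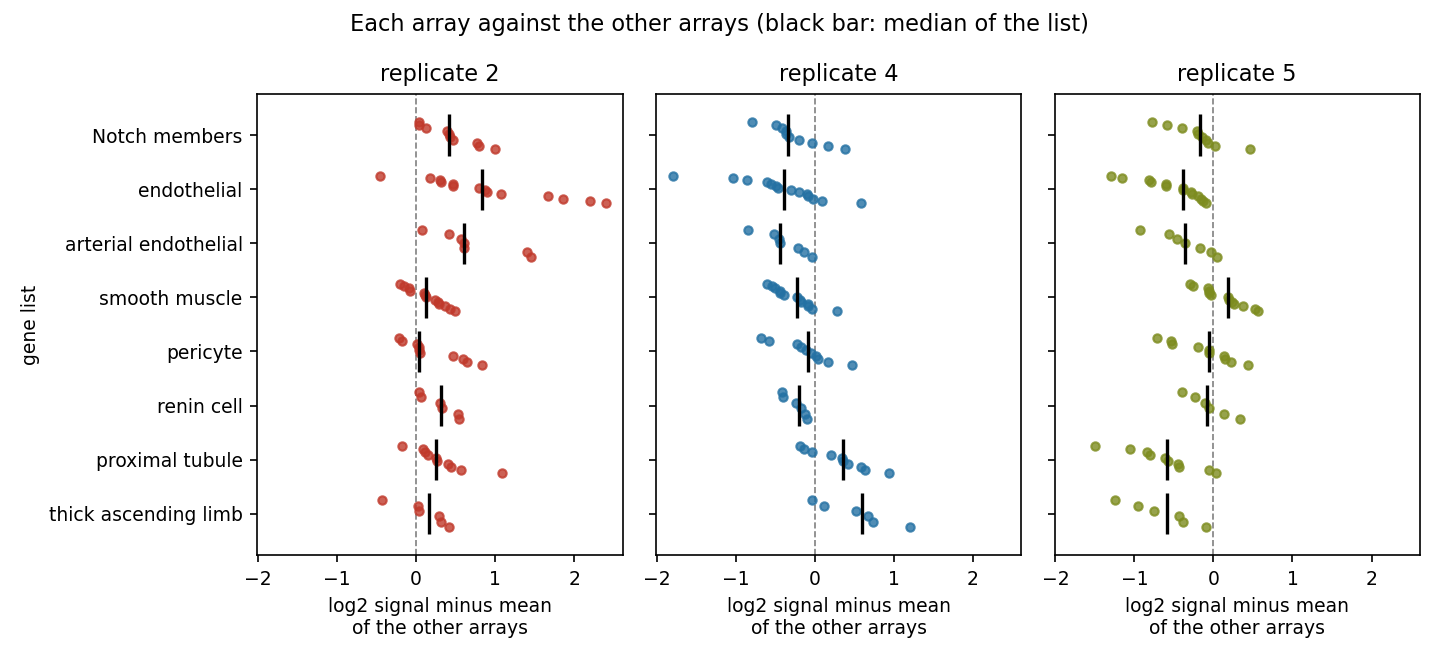
Log2 signal of replicate 2, 4 or 5 minus the mean of the other arrays (horizontal axes) for the 10 Notch genes and 7 lists of cell type markers (vertical axis), with 1 point per gene and a black bar at each list's median. In replicate 2 the medians are 0.42 for the Notch genes and 0.83 for the endothelial markers.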

How the data were processed

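For each probe set and array the authors deposited 1 signal, taken here as log2, from Affymetrix Expression Console per the submitters' processing notes. For its version, summary method and normalization, nothing is given in the sources used here. The log base was read from the range of values (2.21 to 13.96), and array medians were 6.09, 6.11 and 6.21 over 35557 probe sets. RNA was amplified in 1 round, per the labels.

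Probe sets were named from the platform annotation: 21789 had 1 symbol, 1621 several and 12147 none listed. Of the 21789, 21698 matched a RefSeq table by Entrez identifier, with 0 symbols changed. The brightest probe set stood for each of the 999 genes with several, which by itself favours calls. Array signal minus its background level went into an intercept-only model in limma 3.58.1 under R 4.3.3, with a trended eBayes step, tested one-sided and adjusted by Benjamini-Hochberg over all genes, or over all single-symbol probe sets. The test was also run on simulated arrays with planted heights. It called 82% of 50 genes planted 0.5 log2 units above the level and 0.0704% of 9939 at or under it. Those 9939 kept their measured mean heights and were not planted at the level. Their share does not give the error rate for a gene at the level. Noise on the simulated arrays was drawn from the fitted model itself, with the same level on every array, so these assumptions were not tested. Of the olfactory receptor genes that set the level, 21 of 1027 were called. Among families left out of the level, 2 of 167 vomeronasal receptor and 10 of 44 keratin-associated protein genes were called.

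Members and lists were chosen with earlier results of these data known. Named genes were all members, all of a role list of up to 8 measured genes, otherwise up to 5 called genes with the smallest p and the 2 with the largest p, and for marker lists at most 3 with the smallest p and the 1 with the largest. Further genes of the pathway lists, though not of the marker lists, are named where leaving out a replicate changed their call. Genes like a member were sought only where its arrays differed by over 1 log2 unit. Alternatives were other background percentiles and families, scalings, eBayes without trend, mean probe sets and leaving out each array. Python 3.11.15 and pandas 2.3.3 were used.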

Additional observations from a re-analysis of the deposited data

How the results depend on the processing

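No paired analysis was possible because the series holds 1 group. The count of 10 called genes of 10, and of 10 called probe sets of 11, stayed at 10 with the level at the 90th percentile or from vomeronasal receptor genes, with quantile normalization, with median centring and without the eBayes trend. The share of all genes called was 50.0% at the 90th percentile and 65.9% with vomeronasal receptor genes, against 37.3% at the main level, so a count of 10 says less there. The count was 6 for both at the 99th percentile and 0 for both with the level from keratin-associated protein genes, and ranged from 7 to 10 when 1 replicate was left out. The count of other pathway genes, 41 of 66, became 12 at the 99th percentile (16.6% of all genes) and 2 with keratin-associated protein genes (3.56%), so at these levels its share was close to that of all genes. It was 50 at the 90th percentile and 59 with vomeronasal receptor genes, and ranged from 30 to 42 when 1 replicate was left out. Called genes whose mean fell under one of these stricter levels had a limma adjusted p of 1.0 there. Among the 10 genes these were Notch1, Notch4, Hes1 and Hey1 at the 99th percentile, and all but Jag1 and Hey2 with keratin-associated protein genes. Jag1 and Hey2 had means 0.60 and 0.40 above that last level and were not called there either. The test's error does not cover the spread between background probes. Without the eBayes trend Poglut1 (limma adjusted p = 0.0508) and Nrarp (0.066) missed the threshold and Aph1b (0.0342) passed, as it did with quantile normalization (0.0445). The median SD of the 10 genes ranged from 0.18 to 0.37 with 1 replicate left out, and was 0.25 with quantile normalization and 0.28 with median centring.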
